A study of Homo sapiens with 6 samples.

Results

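The genes described here are 48 genes spread along a stretch of the long arm of chromosome 8, from TMEM64 to MED30, where transcript levels were on the whole higher in COX-1 knockdown ovarian cancer cells than in control cells. They were picked by symbol and position, with the contrast between these cells already known, so their levels and fold changes are a description and carry no test. Of the 48 symbols 47 were found among the 34811 genes of the count table, TSPYL5 was not analysed here, and 46 passed the filter on low counts along with 17309 genes in all. GEM was the member left out by the filter.

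OVCAR-3 is an established human ovarian carcinoma cell line. In OV3/COX1KD cells a stable shRNA targets COX-1, the enzyme encoded by PTGS1 that turns arachidonic acid into prostaglandin precursors, while OV3/SCR cells hold a scrambled shRNA on the same pRS HuSH-29 plasmid. Both were selected with puromycin and grown in RPMI-1640 with serum. RNA-seq covered 3 independent passages per condition, all of clone #2 for OV3/COX1KD and all of clone #1 for OV3/SCR. With 1 clone on each side, an effect of the knockdown and a difference between clones cannot be told apart. The p-values below measure the spread between passages only. In bulk RNA, fewer cells that express a gene and less RNA per cell also cannot be told apart.

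Gain of the long arm of chromosome 8 is among the most frequent chromosome changes of high-grade serous ovarian cancer, and several genes of this stretch (MTDH, LAPTM4B, YWHAZ, RAD21 and PABPC1) are studied in carcinomas. The stretch holds no pathway of its own. Its genes serve transcription, chromosome cohesion, RNA processing, mitochondria, lysosomes, signalling and cilia, and many of them make 1 subunit of a complex whose other subunits are encoded elsewhere. DNA copy number was not analysed here.

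The 6 libraries held between 25291505 and 27391538 counts on genes, so that 3 counts, the lowest level taken as detectable, corresponded to 0.112 to 0.120 CPM, the TMM-scaled unit of level used here, a limit that covers counting error only. PTGS1 itself stood at 713, 658 and 641 counts in OV3/SCR and at 456, 486 and 501 in OV3/COX1KD, a log2 fold change of -0.45 ± 0.057 (SE, edgeR quasi-likelihood FDR 1.345e-06). Among cell type markers, the 7 epithelial and Müllerian genes summed to 3612 to 3645 CPM in OV3/SCR and to 5063 to 5227 CPM in OV3/COX1KD. Fibroblast markers summed to at most 10.5 CPM, endothelial markers to at most 1.95 CPM and leukocyte markers to at most 0.958 CPM in any library, and COL3A1 was at 0 counts in every library but OV3/COX1KD replicate 3, which held 4. Of the 7 epithelial genes 6 were higher in OV3/COX1KD, as most of the listed genes were, and PAX8 was lower (-0.76 ± 0.035), and their part in the result was not tested. A gene is called below when its edgeR FDR was under 0.01. The study also asked for a fold change above 2.5, which no listed gene reached, the largest being 1.88 for MATN2.

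Across the 46 listed genes tested, the log2 fold change of OV3/COX1KD over OV3/SCR was above 0 for 42 and below 0 for 4. The call was higher for 37 genes and lower for 2 (SPAG1 and KLF10), while 7 had no call, against 25.8% of all genes tested called higher and 22.1% called lower. At or above a mean log2 CPM of 1, 32.3% of all genes were called higher and 25.4% lower. These shares stand side by side only, since the genes were listed with the contrast known. The median log2 fold change was 0.37, a fold of 1.29, beside -0.0087 over all genes, and the middle of the distribution was modest, with quartiles of 0.16 and 0.64. Of the 46 genes, 19 were called higher with a log2 fold change above 0.5, a limit passed by 9.87% of all genes. The extremes were MATN2 at 0.91 and SPAG1 at -0.72, while standard errors ran from 0.027 for PABPC1 to 0.17 for FBXO43.

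The 2 sets of libraries were well separated for most of these genes. All 3 OV3/COX1KD libraries lay above all 3 OV3/SCR libraries for 40 of the 46 genes, against 32.5% of all genes, and below them for POP1, SPAG1, KLF10 and LRP12, against 30.7%. RBM12B and FBXO43 overlapped. The median of the listed genes relative to their OV3/SCR mean was 0.37, 0.33 and 0.40 on the log2 scale in OV3/COX1KD replicates 1, 2 and 3, and 0.0063, -0.028 and 0.014 in the OV3/SCR replicates. Counts on the listed genes made up 0.785% ± 0.0063 (SD, n = 3) of each OV3/SCR library and 1.07% ± 0.017 (SD, n = 3) of each OV3/COX1KD library. Another scaling mattered for the genes with small differences. With total counts in place of TMM factors, the calls of NDUFAF6, POLR2K, RNF19A, ZNF706, SLC25A32 and NUDCD1 were lost, POP1 and LRP12 were called lower, and RBM12B, FBXO43 and DCAF13 changed sign. Over all genes that scaling took the share of calls that were higher from 53.9% to 41.1%.

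**Figure D1:**
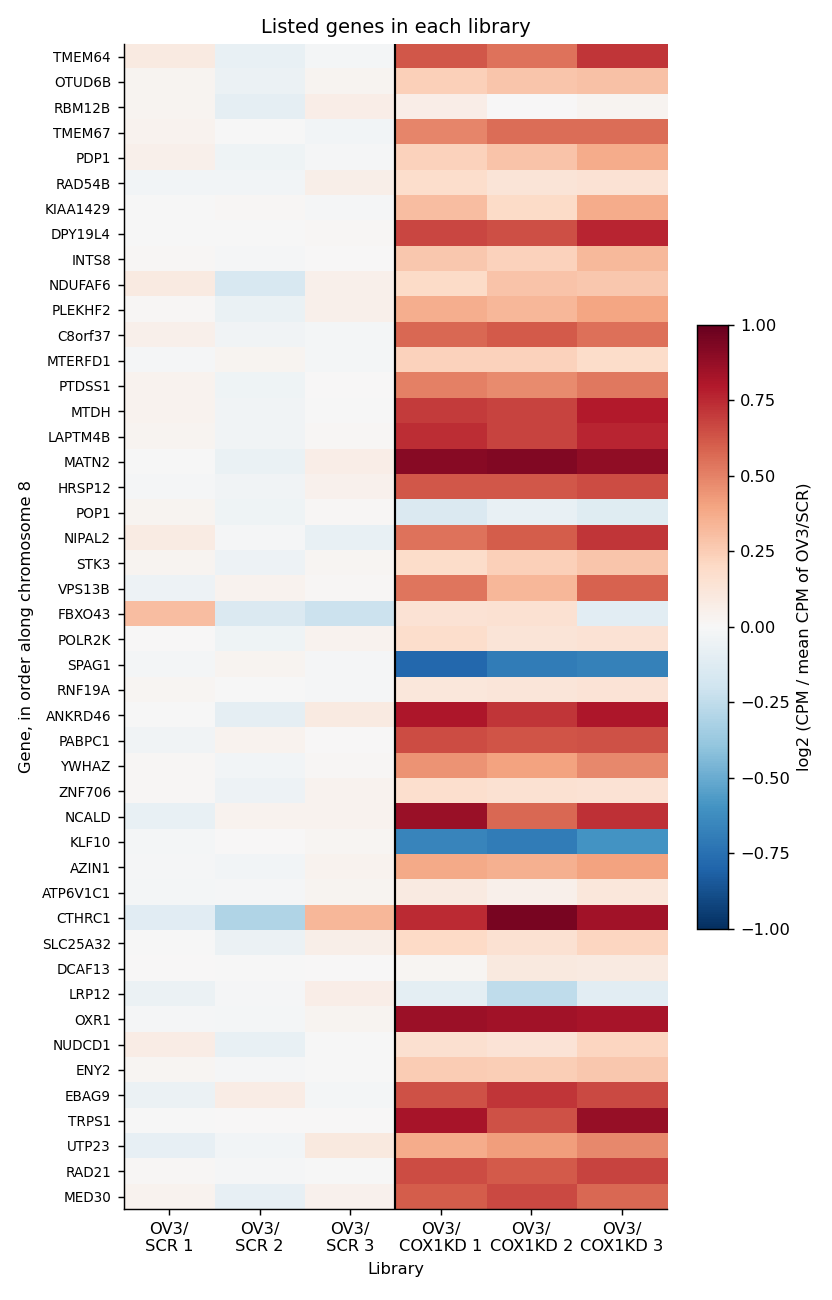
Level of each of the 46 tested genes (rows, in order along the chromosome) in each of the 6 libraries (columns), as log2 of CPM over the mean CPM of OV3/SCR, with red above and blue below that mean. The OV3/COX1KD columns are red for most rows, with SPAG1 and KLF10 in blue, and the RBM12B and FBXO43 rows show no clear split.

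Genes of transcription included both some of the higher values and a clear fall. TRPS1, a GATA-type zinc finger repressor whose loss causes tricho-rhino-phalangeal syndrome, stood at 128, 128 and 128 CPM in OV3/SCR and at 226, 199.5 and 234 CPM in OV3/COX1KD replicates 1, 2 and 3. Its log2 fold change was 0.78 ± 0.044 (SE), with replicate 2 the lowest of the knockdown libraries yet far above every control. MED30, a subunit of the Mediator complex that links activators to RNA polymerase II and the last listed gene by position, went from 19.0, 17.5 and 19.1 CPM to 28.1, 29.3 and 27.5 CPM (0.61 ± 0.057). INTS8, an Integrator subunit, had a log2 fold change of 0.28 ± 0.035, and ENY2, shared by the SAGA deubiquitinase module and the TREX-2 mRNA export complex, one of 0.26 ± 0.032. POLR2K, a small subunit common to all nuclear RNA polymerases, differed least among the higher genes of this role (0.15 ± 0.036). KLF10, a Krüppel-like repressor induced by TGF-β, went the other way, with 52.9, 53.6 and 54.2 CPM in OV3/SCR and 33.9, 33.0 and 35.5 CPM in OV3/COX1KD. That is a fold of 0.637 and a log2 fold change of -0.65 ± 0.044, with a wide gap between the groups.

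Among genes of chromosomes and cell division, RAD21 stood apart. RAD21 is the cohesin subunit that closes the ring around sister chromatids and is cut by separase at anaphase. It was read at 741, 728 and 734 CPM in OV3/SCR and at 1154, 1123 and 1172 CPM in OV3/COX1KD, a log2 fold change of 0.65 ± 0.028. RAD54B, a motor protein of homologous recombination, had no call, with 17.4, 17.4 and 18.5 CPM against 20.04, 19.4 and 19.6 CPM (0.15 ± 0.059). The knockdown libraries were the higher ones by a small margin, and the gene was called higher with GC and length offsets but not with the replicate block added. Other genes, FSBP the most, also cover 66.0% of the annotated exon length of RAD54B. FBXO43, an inhibitor of the anaphase-promoting complex used in meiosis, was scarce, at 77, 55 and 52 counts in OV3/SCR and 65, 65 and 58 counts in OV3/COX1KD, and its log2 fold change of 0.064 ± 0.17 was smaller than its error.

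Of the 6 RNA-binding and RNA-processing genes 3 were called higher, beside 80.4% of the whole list and 25.8% of all genes. Counts by role carry no test, since the genes were listed with the contrast known. PABPC1, the main cytoplasmic poly(A)-binding protein, which protects mRNA tails and aids translation, had the highest level per length of all listed genes, at 236 CPM per kb of exon in OV3/SCR. In single libraries it stood at 2203, 2306 and 2261 CPM in OV3/SCR and at 3549, 3488 and 3512 CPM in OV3/COX1KD (0.64 ± 0.027). Its near-identical retrocopies make the split of its reads uncertain. UTP23, a factor of small ribosomal subunit assembly, was also higher (0.43 ± 0.045), although 13.1% of its exon length lies over other genes, RAD21 the most. KIAA1429, the scaffold of the m6A methyltransferase now called VIRMA, was higher too (0.29 ± 0.038).

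The other 3 RNA genes had no call, although DCAF13 was called higher with GC and length offsets. DCAF13, a part of the small subunit processome, stood at 296, 295 and 297 CPM against 301, 316 and 314 CPM (0.068 ± 0.029). RBM12B, an RNA recognition motif protein, stood at 53.4, 49.2 and 54.9 CPM against 54.8, 52.6 and 53.5 CPM (0.031 ± 0.045), with the groups overlapping. Other genes share 37.7% of the exon length of RBM12B, a neighbour on the other strand the most. POP1, the large protein subunit of RNase P and RNase MRP, which trim transfer and ribosomal RNA precursors, stood at 29.1, 27.6 and 28.7 CPM against 25.7, 26.98 and 26.2 CPM (-0.11 ± 0.051). It was slightly lower in each knockdown library, beside a neighbour, HRSP12, that was higher.

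All 7 genes of mitochondria and metabolism were called higher, by very different amounts, in a list of which 80.4% was called higher (25.8% of all genes). OXR1, which protects cells from oxidative damage, led with 74.3, 73.9 and 76.1 CPM in OV3/SCR and 135, 134 and 132 CPM in OV3/COX1KD (0.84 ± 0.033). HRSP12, the reactive imine deaminase now called RIDA, followed at 0.63 ± 0.043. AZIN1, which keeps antizyme away from ornithine decarboxylase, had 0.38 ± 0.030, and PDP1, the phosphatase that switches pyruvate dehydrogenase on, had 0.29 ± 0.055. Differences were smaller for genes of mitochondrial assembly and transport. NDUFAF6, an assembly factor of complex I, had 0.25 ± 0.066 and MTERFD1, a regulator of mitochondrial transcription, 0.21 ± 0.039. SLC25A32, the mitochondrial folate and FAD carrier, had the smallest difference, from 56.3, 54.3 and 58.6 CPM to 64.7, 62.8 and 65.4 CPM (0.19 ± 0.040).

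Membrane and trafficking genes formed the largest role and 8 of 10 were called higher, with a median log2 fold change of 0.56. That is close to the share of the whole list, 80.4%, against 25.8% of all genes. LAPTM4B, a lysosomal membrane protein that sorts receptors, was second among the listed genes in level per length (184 CPM per kb in OV3/SCR). It went from 598, 575 and 592 CPM to 983, 943 and 1000.2 CPM, a log2 fold change of 0.73 ± 0.030. TMEM64, the first listed gene by position, stood at 68.6, 61.3 and 63.7 CPM against 99.2, 94.0 and 106 CPM (0.63 ± 0.046). All of these knockdown values lay well clear of the control values. DPY19L4 (0.69 ± 0.036), EBAG9, a brake on secretory granule release (0.67 ± 0.049), and NIPAL2, of the NIPA magnesium transporter family (0.62 ± 0.077), were close to it. PTDSS1, which makes phosphatidylserine (0.50 ± 0.031), VPS13B, a lipid transfer protein of the Golgi mutated in Cohen syndrome (0.49 ± 0.052), and PLEKHF2, a phosphoinositide-binding protein of endosomes (0.36 ± 0.042), came next.

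ATP6V1C1 and LRP12 were the membrane genes with no call. ATP6V1C1, the C subunit of the proton pump that acidifies lysosomes, stood at 123, 124 and 127 CPM in OV3/SCR and 133, 129 and 135 CPM in OV3/COX1KD (0.083 ± 0.032). LRP12, a receptor of the LDL receptor family, stood at 48.5, 50.3 and 53.2 CPM against 47.3, 42.6 and 47.0 CPM (-0.15 ± 0.049). Its groups did not overlap, yet were separated by less than their own spread.

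Signalling and ubiquitin genes were called higher in 6 of 6 tested, beside 80.4% of the whole list and 25.8% of all genes. NCALD, a neuronal calcium sensor, had the largest difference, from 17.8, 19.2 and 19.2 CPM to 34.1, 27.9 and 31.2 CPM (0.73 ± 0.067), with a wide spread among its knockdown libraries. MTDH, the adaptor metadherin, studied as a driver of metastasis, was nearly equal to it in change and much more even across libraries (0.72 ± 0.034). YWHAZ, the zeta form of the 14-3-3 proteins that bind phosphorylated partners, came after PABPC1 and LAPTM4B in level per length (129 CPM per kb) and stood at 1113, 1084 and 1114 CPM against 1507, 1463 and 1537 CPM (0.44 ± 0.028). Its processed pseudogenes make the assignment of some reads uncertain. OTUD6B, a deubiquitinase, had 0.27 ± 0.036, and STK3, the Hippo kinase MST2, had 0.23 ± 0.039. RNF19A, an E3 ubiquitin ligase, was at 73.0, 72.0 and 71.5 CPM against 78.0, 78.4 and 79.5 CPM (0.12 ± 0.035), and its call was lost in DESeq2, with a floor of 10 counts per library and when any library but OV3/COX1KD replicate 2 was left out. GEM, a small GTP-binding protein, was close to the floor, at 11, 4 and 5 counts against 4, 8 and 1, and no change was detectable at this depth.

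The 3 cilium genes went in opposite directions. C8orf37, a protein of photoreceptor cilia, stood at 8.50, 8.01 and 8.07 CPM against 12.2, 12.5 and 12.0 CPM (0.58 ± 0.077), and TMEM67, the transition zone receptor meckelin, had 0.54 ± 0.044. SPAG1, a cytoplasmic factor that assembles dynein arms of motile cilia, was the most strongly reduced listed gene. It stood at 31.0, 31.9 and 31.1 CPM in OV3/SCR and at 18.2, 19.3 and 19.6 CPM in OV3/COX1KD, a fold of 0.607 and a log2 fold change of -0.72 ± 0.053. SPAG1 lies among genes that were higher, and its immediate neighbour by position, RNF19A, overlaps at most 4.06% of its exon length.

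Both matrix genes showed large differences, at levels below the median of the listed genes, and CTHRC1 was scarce. MATN2, the filament-forming matrix protein matrilin-2, stood at 18.8, 18.0 and 19.8 CPM in OV3/SCR and at 35.5, 35.9 and 34.97 CPM in OV3/COX1KD, the largest log2 fold change of the list (0.91 ± 0.053). CTHRC1, a secreted protein of wound repair, was close to it in change (0.85 ± 0.16) but was read at only 56, 48 and 74 counts against 96, 110 and 108, hence the wide error. The remaining genes have less settled roles. ANKRD46, an ankyrin repeat protein, stood at 23.5, 22.1 and 25 CPM against 41.1, 38.6 and 41.3 CPM (0.78 ± 0.054), NUDCD1 differed by 0.17 ± 0.040, and ZNF706 went from 85.0, 81.3 and 86.4 CPM to 94.4, 93.6 and 93.2 CPM (0.15 ± 0.035). ANKRD46 was thus among the highest of the list, and ZNF706 among the lowest called.

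**Figure D2:**
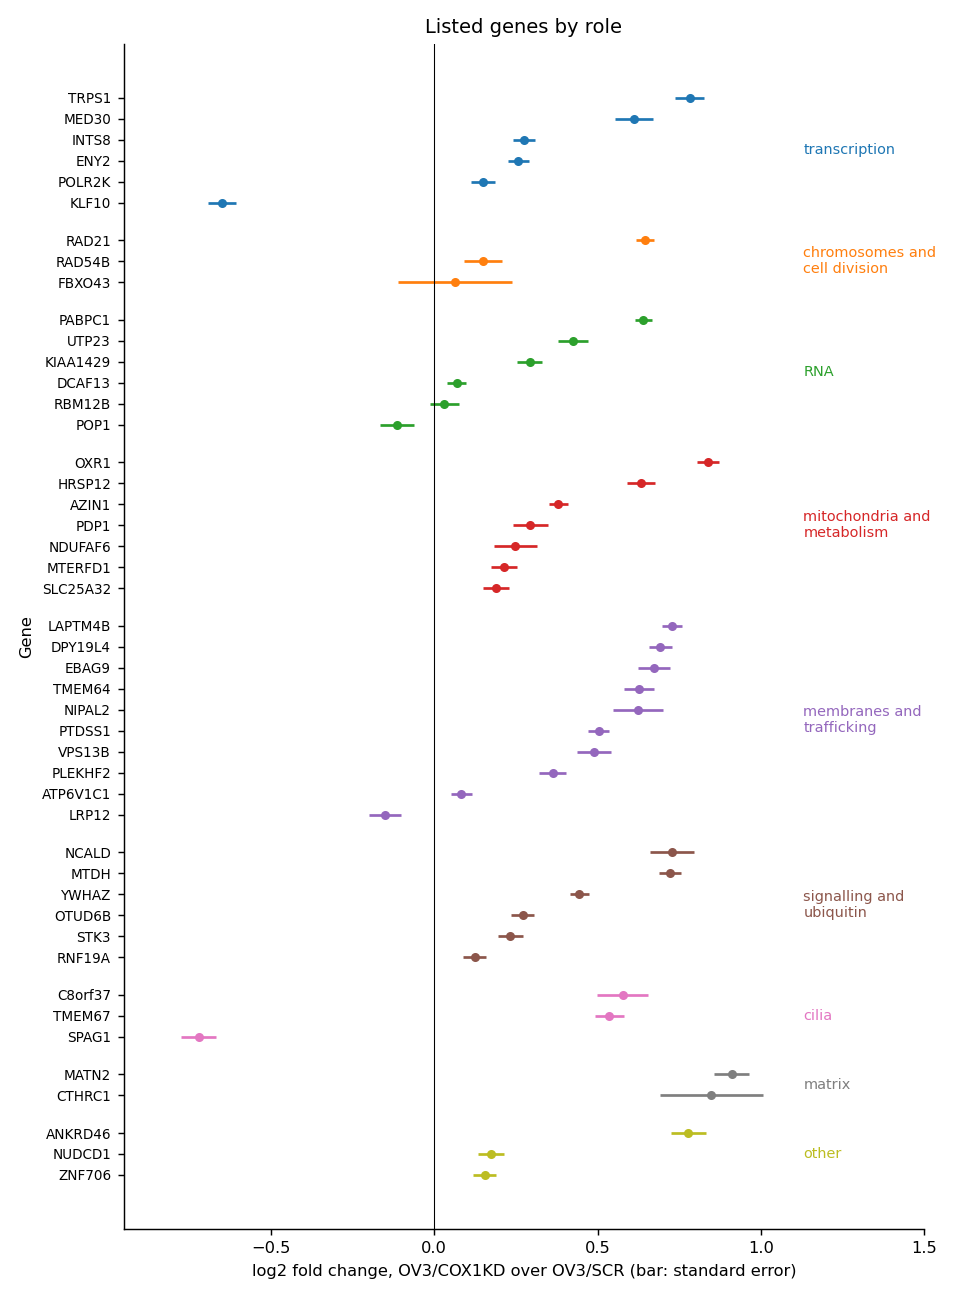
Log2 fold change of OV3/COX1KD over OV3/SCR for the 46 tested genes, grouped by role, where points are edgeR estimates from 3 libraries per condition and bars are standard errors. Most points lie to the right of 0, from 0.031 for RBM12B to 0.91 for MATN2, and KLF10 and SPAG1 lie far to the left at -0.65 and -0.72.

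The amount of change had no simple relation to other features of the genes. Across the 46 genes the log2 fold change had a Pearson r of 0.14 with mean log2 CPM, 0.037 with exon length, 0.062 with exon GC content and 0.11 with position, with Spearman rho of 0.11, 0.090, 0.16 and 0.059. Genes of 1 pair of clones share their libraries and are not replicates, so these values are a description. As a set, the listed genes were all protein-coding, more abundant than genes in general (median log2 CPM 6.12 against 3.95) and lower in GC (40.9% against 47.9% over 16800 genes with an annotation entry). Position gave no gradient. The median was 0.29 over the 15 genes from TMEM64 to MTDH, 0.47 over the 16 from LAPTM4B to NCALD and 0.38 over the 15 from KLF10 to MED30, and each of these segments mixed differences above 0.7 with differences below 0.1.

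Neighbours that share a start region did not always move alike. Annotated starts of 8 gene pairs on opposite strands, each with a listed gene, lay within 1000 bases of each other, pairs that were looked up after the values had been seen. HRSP12 and POP1 start 122 bases apart and had log2 fold changes of 0.63 ± 0.043 and -0.11 ± 0.051. MTERFD1 and PTDSS1, 292 bases apart, had 0.21 ± 0.039 and 0.50 ± 0.031. Other pairs were closer to each other in change. NUDCD1 and ENY2, 203 bases apart, had 0.17 ± 0.040 and 0.26 ± 0.032, and EIF3H, a translation initiation factor gene outside the list, had 0.58 ± 0.028 beside 0.43 ± 0.045 for UTP23, 420 bases away. SLC25A32 and DCAF13, 475 bases apart, had 0.19 ± 0.040 and 0.068 ± 0.029. The library kit does not mark strand, so reads from overlapping ends of opposite genes could not be separated by strand. This bears on UTP23, SLC25A32, INTS8 (20.7% of its exon length under other genes, CCNE2 the most) and RBM12B.

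The list does not hold every gene of the stretch. From the start of TMEM64 to the end of MED30, on chromosome 8 from 91634223 to 118552501 of GRCh37, the table holds 231 genes, of which 184 are not on the list, and 55 of those passed the filter. Of these 55 genes 25 were called higher and 5 lower, against 25.8% and 22.1% of all genes, with a median log2 fold change of 0.34. The unlisted genes therefore lay close to the listed ones in their median, though the share called higher was smaller, at 45.5% against 80.4%. They were also scarcer, with a median log2 CPM of 2.68 against 6.12. At or above a mean log2 CPM of 1, 22 of 37 unlisted genes (59.5%) were called higher, with a median log2 fold change of 0.43. At that level 32.3% of all genes and 44.6% of chromosome 8 genes outside the stretch were called higher. Listed and unlisted genes together gave 62 of 101 called higher, or 61.4%, and 7 lower. These counts share the contrast and the bounds by which the list was drawn up and give it no support.

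At or above a mean log2 CPM of 1, the largest differences of the stretch were in unlisted genes. CPQ, a secreted carboxypeptidase, went from 110, 100 and 120 counts in OV3/SCR to 496, 516 and 542 in OV3/COX1KD (2.27 ± 0.083). AARD, at 1111, 1071 and 987 counts against 2531, 2595 and 2677, had 1.33 ± 0.040, and the transcript CTD-2114J12.1 had 1.11 ± 0.11. Both exceeded every listed gene. RRM2B, the p53-induced subunit of ribonucleotide reductase (0.73 ± 0.050), and EIF3E, a translation initiation factor subunit (0.73 ± 0.028), were in the upper part of the listed range. In the other direction, RUNX1T1, a corepressor gene known from a leukemia fusion, went from 444, 435 and 509 counts to 139, 105 and 123, a log2 fold change of -1.89 ± 0.10. ZFPM2, a GATA cofactor (-0.83 ± 0.12), RIMS2, a synaptic release factor (-0.81 ± 0.18), the transcription factor gene OSR2 (-0.38 ± 0.072) and the transcript KB-1208A12.3 (-0.35 ± 0.11) were also called lower. The call of KB-1208A12.3 was the least firm, since its FDR was 0.009922 and was above 0.01 in DESeq2, with the replicate block and without any library but OV3/COX1KD replicate 2.

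**Figure D3:**
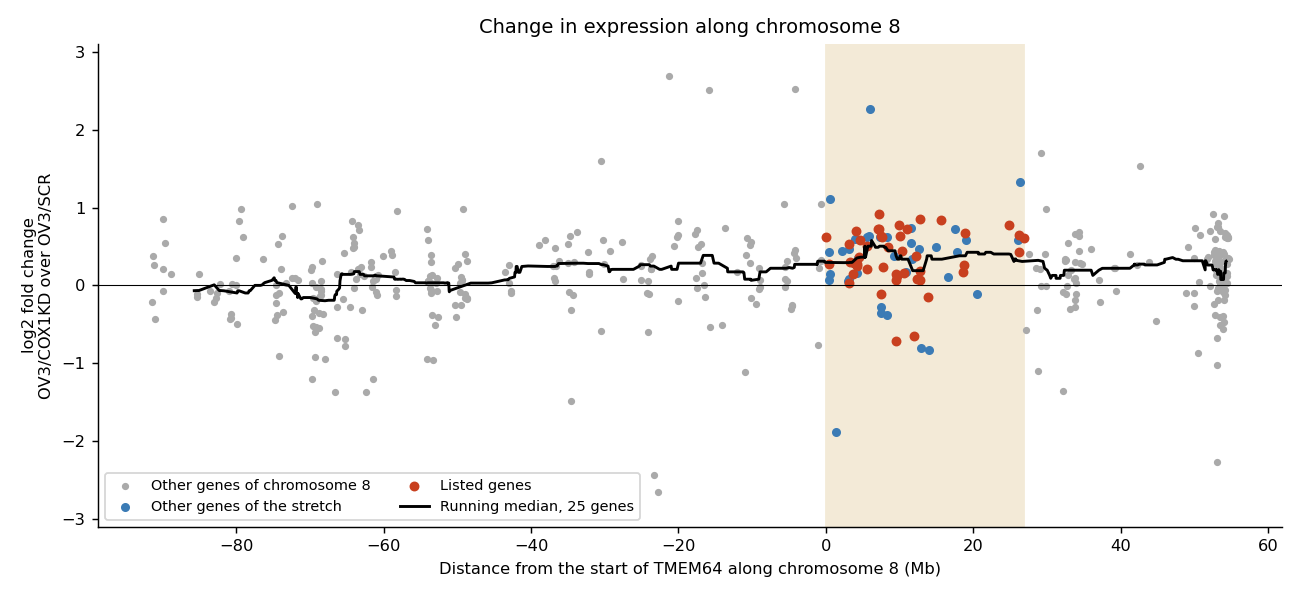
Log2 fold change of OV3/COX1KD over OV3/SCR for genes of chromosome 8 at or above a mean log2 CPM of 1, against distance from the start of TMEM64 in Mb, with listed genes in red, unlisted genes of the stretch in blue, other genes in grey and the running median of 25 genes as a line. The line reaches 0.58 inside the shaded stretch of 26.9 Mb and stays above 0 over most of the long arm on both sides.

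The ends of the list were not sharp edges in the data. The counts here stand beside 32.3% of all genes at or above a mean log2 CPM of 1 called higher and 25.4% lower. Among genes at or above a mean log2 CPM of 1, the 10 just before TMEM64 had a median log2 fold change of 0.34, with 8 called higher and 2 lower, while the first 10 of the stretch had a median of 0.21, with 5 called higher and 1 lower. Nearest to that end lay DECR1, a mitochondrial enzyme of unsaturated fatty acid breakdown (1.04 ± 0.059), NBN, of the MRN complex that senses DNA breaks (0.32 ± 0.032), and OSGIN2 (0.31 ± 0.039). At the other end the step was larger. The last 10 genes of the stretch had a median of 0.60, with 9 called higher, and the 10 beyond MED30 a median of 0.10, with 5 called higher and 2 lower. Beyond MED30 came EXT1, a heparan sulfate polymerase, at -0.57 ± 0.036, then SAMD12 at 0.40 ± 0.094 and MAL2 at 0.22 ± 0.031.

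The rest of the chromosome lay between the stretch and the genome. Over 508 genes of chromosome 8 outside the stretch the median was 0.093, with 35.4% called higher and 17.5% lower, and it was 0.065 before the stretch and 0.16 after it. At or above a mean log2 CPM of 1, chromosome 8 with the stretch included had a median of 0.16, the highest of the 22 numbered chromosomes and X, of which the next, X, had 0.083. That value rests in part on the stretch, which was chosen with this contrast known. Outside the stretch the chromosome 8 median at that level was 0.11 over 377 genes.

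With windows of 25 genes, few runs of neighbouring genes on other chromosomes were as high as the median window inside the stretch. The stretch was chosen with this contrast known, so its place among the windows is a description and carries no test. Running medians over 25 consecutive genes inside the stretch lay between 0.19 and 0.58, with a median of 0.38 over 59 windows that share most of their genes. The highest window ran from ESRP1 to RP11-410L14.2. The lowest, 0.19, was exceeded by the highest window of most other chromosomes, such as 0.26 on chromosome 1. On other chromosomes 11770 windows reached at most 0.48, on X from GTPBP6 to CLCN4, and 13 of them, 0.11%, were at or above 0.38, the median inside the stretch. On chromosome 8 the windows wholly outside the stretch lay between -0.20 and 0.39. Windows across an end of the stretch are not in that range and reached 0.425, as from ATP6V1C1 to EXT1. The margin depended on the processing. With 25 genes and GC and length offsets, the highest window was 0.5756 inside the stretch and 0.5523 on another chromosome. The order and the share depended on the window size. With 15 genes per window the stretch reached 0.62 and the X region 0.69, and 119 windows on other chromosomes, 0.992%, were at or above the median inside the stretch, 5 of them at or above its maximum. On chromosome 8 outside the stretch the highest window was then 0.51. With 41 genes the stretch reached 0.44 against 0.37 on chromosome 5, and no window on another chromosome came up to the median of 0.38 inside the stretch. Floors of 0 or 3 on the mean log2 CPM took the highest window of chromosome 8 outside the stretch to 0.49.

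**Figure D4:**
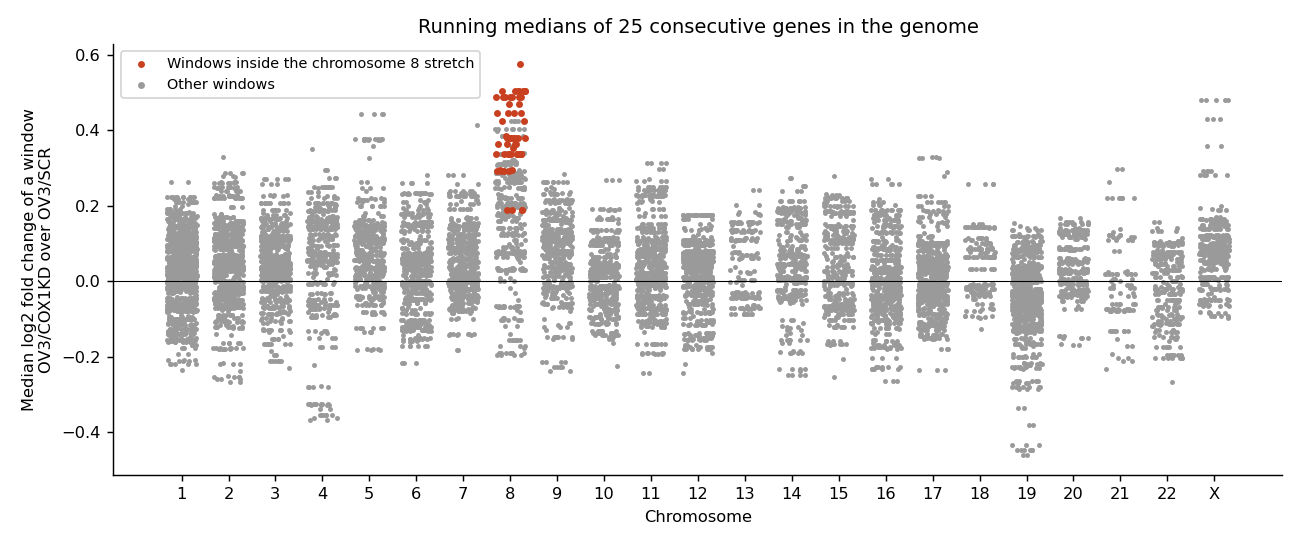
Running medians of log2 fold change over 25 consecutive genes at or above a mean log2 CPM of 1 on each chromosome, with windows inside the chromosome 8 stretch in red and all others in grey (points are spread sideways for visibility). Red points run from 0.19 to 0.58, and the highest grey point off chromosome 8 is 0.48 on X. The stretch was chosen with this contrast known, so its place is a description only.

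Since many listed genes make 1 part of a larger complex, the genes of the other parts, encoded outside the stretch, were examined in the same fit. These 15 lists were made by function and hold no listed gene. Of 166 genes 165 were tested, of which 40 rose (24.2%, against 25.8% of all genes) and 47 fell (28.5%, against 22.1%). These shares of all genes are not matched in level, and at or above a mean log2 CPM of 1 they were 32.3% and 25.4%. Under total count scaling 33 rose and 69 fell, or 41.8% lower, against 28.7% of all genes lower under that scaling.

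Cohesin and the transcription complexes had calls in both directions, to be read against the 47.9% of all genes called either way. Among 9 other cohesin and loader genes PDS5A rose (0.29 ± 0.038, FDR 1.421e-06) and SMC1A fell (-0.15 ± 0.032, FDR 0.0003619), beside 0.65 for RAD21. The SMC1A call was lost with GC and length offsets, at an FDR of 0.0479. Of 10 Integrator genes INTS9 rose (0.24 ± 0.047, FDR 0.0002627), itself on chromosome 8 outside the stretch, and 5 fell, INTS7 the most (-0.41 ± 0.050, FDR 6.69e-07), a larger difference than that of INTS8 at 0.28. INTS10, another gene of this list, also lies on chromosome 8 outside the stretch. Mediator had 5 of 29 genes higher and 7 lower, between MED9 at 0.37 ± 0.043 (FDR 3.513e-07) and MED15 at -0.43 ± 0.037 (FDR 5.74e-09), so none of them reached the 0.61 of MED30. RNA polymerase II had 2 of 11 higher, POLR2I at 0.23 ± 0.044 (FDR 0.00019) the most, and 3 lower, POLR2A, the catalytic subunit, at -0.26 ± 0.045 (FDR 4.992e-05), and both differed by more than POLR2K at 0.15.

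All 7 partners of ENY2 in the SAGA deubiquitinase module and TREX-2 were called, 3 higher and 4 lower, against 47.9% of all genes called either way. The largest were CETN2 at 0.56 ± 0.043 (FDR 1.207e-09) and ATXN7L3 at -0.30 ± 0.037 (FDR 8.925e-07). They therefore moved in both directions, and 4 of them by more than ENY2 itself at 0.26. The m6A writer had 1 of 7 partners higher, RBM15B (0.29 ± 0.045, FDR 1.682e-05), and 1 lower, the catalytic subunit METTL3 (-0.31 ± 0.042, FDR 3.389e-06). In RNase P and MRP 2 of 9 fell, RPP21 the most (-0.56 ± 0.13, FDR 0.00134), although that call was lost without OV3/SCR replicate 2 (FDR 0.01635). The small subunit processome, which holds DCAF13 and UTP23, ran mostly the other way, with 14 of 27 partners lower (51.9%, against 22.1% of all genes) and 3 higher. NOP14 had the largest fall (-0.38 ± 0.033, FDR 6.161e-09) and IMP3 the largest rise (0.22 ± 0.052, FDR 0.001307), the latter lost under total count scaling (FDR 0.0252) and without OV3/SCR replicate 1 (FDR 0.01073).

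Partners of TMEM67 at the ciliary transition zone, the gate at the base of the cilium, were mostly higher. Of these 12 genes 7 rose (58.3%, against 25.8% of all genes) and the other 5 had no call, with a median log2 fold change of 0.40, and the count stayed at 7 in each of the 15 alternatives. TCTN2, at 276, 275 and 309 counts in OV3/SCR and 489, 450 and 489 in OV3/COX1KD, rose the most (0.76 ± 0.072, FDR 2.052e-08). TMEM67 at 0.54 therefore lay within the range of its partners rather than above it. None of the 12 is encoded on chromosome 8.

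Calls in the short lists of signalling partners stand beside 25.8% of all genes called higher and 22.1% lower. Of the 6 other 14-3-3 genes 4 rose, SFN the most (0.70 ± 0.096, FDR 3.535e-06), and YWHAH fell (-0.21 ± 0.035, FDR 4.185e-05). Of 6 Hippo genes 3 rose and 2 fell, SAV1, the scaffold of STK3, at 0.42 ± 0.057 (FDR 3.671e-06) and STK4, its closest paralog, at -0.23 ± 0.035 (FDR 1.316e-05). The paralogs STK3 and STK4 thus differed in opposite directions. Poly(A)-binding genes had 1 of 4 tested higher and 2 lower. PABPC1L, an oocyte-type relative of PABPC1, fell from 3965, 3805 and 3765 counts to 1641, 2085 and 1772 (-1.04 ± 0.060, FDR 1.372e-11). PABPC3, a retrocopy of PABPC1 whose reads may belong to PABPC1, had 0.65 ± 0.16 (FDR 0.001598), almost the value of PABPC1 itself at 0.64, and lost its call without OV3/SCR replicate 2 (FDR 0.01437).

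Metabolic partners showed both directions too, in short lists to be read against 25.8% of all genes called higher and 22.1% lower. Of 9 other V1 subunits of the proton pump 3 rose, and ATP6V1B2 and ATP6V1H of this list lie on chromosome 8 outside the stretch. ATP6V1B1, an isoform of specialised acid-secreting cells, rose from 34, 56 and 34 counts to 123, 143 and 112 (1.64 ± 0.18, FDR 2.215e-07). Pyruvate dehydrogenase genes had 4 of 11 higher and 2 lower, among them its kinase PDK1 at 0.30 ± 0.051 (FDR 5.324e-05) and its catalytic subunit PDHA1 at -0.73 ± 0.046 (FDR 5.339e-11). The kinase that opposes PDP1 and the subunit that both act on thus went in opposite directions. In the polyamine list 2 of 8 rose and 3 fell, with OAZ2, an antizyme of the kind AZIN1 binds, at 0.65 ± 0.031 (FDR 6.355e-13) and SAT1, which acetylates polyamines for export, at -0.34 ± 0.053 (FDR 1.886e-05).

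**Figure D5:**
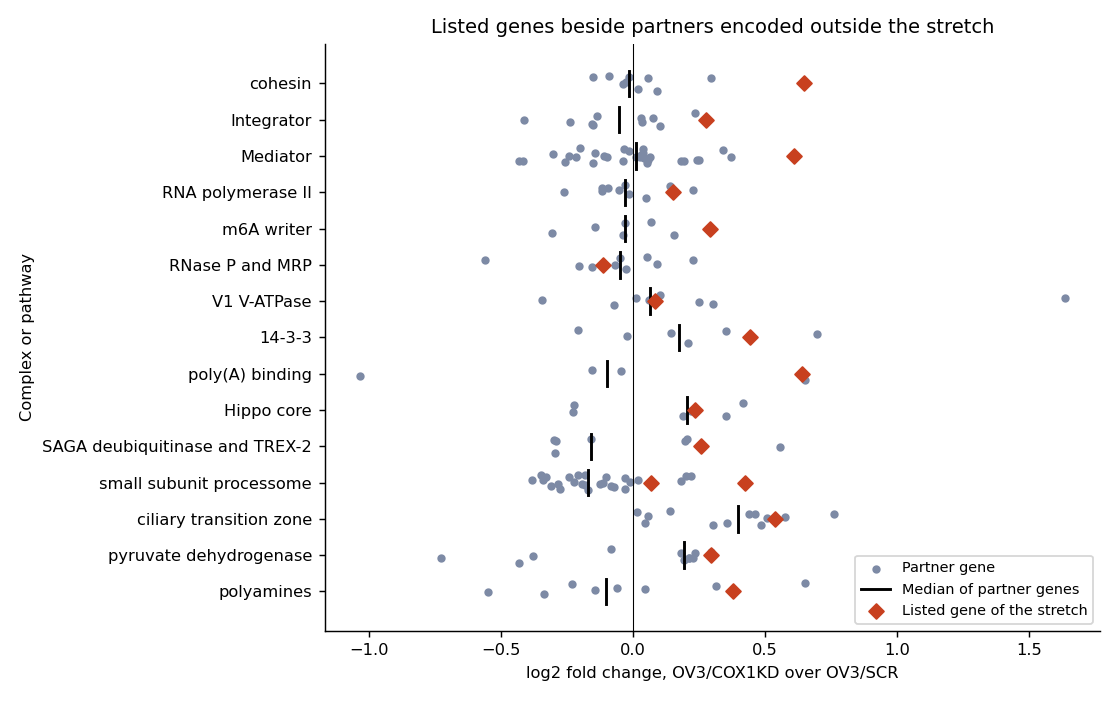
Log2 fold change of OV3/COX1KD over OV3/SCR for 165 partner genes in 15 complexes or pathways (grey points), their median (black bar) and the listed chromosome 8 gene or genes of each (red diamonds). RAD21 at 0.65 and MED30 at 0.61 lie beyond all their partners, TMEM67 at 0.54 lies among them, and the medians of the cohesin, Integrator, Mediator, m6A writer and V1 lists change sign under at least 1 other setting.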

How the data were processed

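RNA-seq was performed on 3 libraries each of OV3/SCR and OV3/COX1KD cells (Illumina HiSeq 2500, TruSeq RNA kit, which does not mark strand). The authors aligned reads to hg19 (GRCh37) with TopHat2 (version 2.0 in the submitters' processing notes), used HTSeq for the number of reads on each gene, and deposited these raw counts for 34811 genes. The gene annotation and the strand setting are not given in the sources used here.

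The counts were tested with edgeR 4.0.16 under R 4.3.3. Genes were kept by filterByExpr (17309), libraries were scaled by TMM, and the conditions were contrasted by the quasi-likelihood test (glmQLFit, glmQLFTest) with no other factor. Benjamini-Hochberg adjustment ran over all kept genes, and a gene was called at an FDR under 0.01. Standard errors are the log2 fold change over the square root of its F statistic. Library totals were 25291505 to 27391538, and the biological coefficient of variation was 3.21%, between passages of 1 clone. The fit was also run on simulated counts with a common dispersion for all genes and few changed genes. That setting differs from these data, so the run does not measure the error rate here.

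The 48 genes, their roles and the partner lists were chosen with earlier results of these data known. Values per library are given for the largest and smallest difference of each role, the ends of the stretch, the highest levels per length and genes lower or without a call. Outside the list, the 5 largest rises and falls of the stretch at or above a mean log2 CPM of 1, the genes nearest its ends and the largest rise and fall of each partner list are named. Coordinates and exon lengths came from GENCODE 44 lifted to GRCh37 (33556 genes matched, 47 of the 48).

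Alternatives were RLE size factors, total counts, TMM without chromosome 8, DESeq2 1.42.0, no filter, a floor of 10 counts per library, the replicate number as a block, offsets for GC content and length without and with that block, leaving out each library, and other windows.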

Additional observations from a re-analysis of the deposited data

How the results depend on the processing

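The higher call of the listed genes held in number (31 to 39 of 46) under every alternative, as did those of unlisted and partner genes within 1.5-fold. Total count scaling, which moved the median of all genes by -0.077, changed the calls of the listed genes most: the listed median became 0.29, 4 listed genes were called lower (SPAG1, KLF10, POP1, LRP12), the highest running median was 0.50 inside the stretch and 0.40 on another chromosome, and all calls split into 3468 higher and 4971 lower (41.1% higher against 53.9%). With GC and length offsets 62.2% of calls were higher, and the highest running median elsewhere became 0.5523 (0.5524 with the replicate block as well), beside 0.5756 (0.5764) inside the stretch. With windows of 15 genes the stretch reached 0.6233 and X 0.6943, with 41 genes 0.4444 against 0.3731, and with genes at or above a mean log2 CPM of 3 the stretch reached 0.5447. Leaving out each library gave 33 to 38 listed genes higher, 18 to 20 above 0.5 and 2 lower, a median of 0.35 to 0.40, 21 to 25 unlisted genes higher and 4 to 6 lower, 37 to 46 partners higher and 36 to 47 lower, 3963 to 4852 genes higher and 3161 to 4137 lower in all, and highest running medians of 0.50 to 0.58 inside and 0.46 to 0.50 elsewhere. Without OV3/SCR replicate 2 the calls of NDUFAF6, POLR2K, RNF19A and NUDCD1 were lost, and without OV3/COX1KD replicate 3 those of NDUFAF6 and RNF19A. Deviations of same-numbered libraries correlated weakly (-0.0048, 0.048 and 0.028), beside -0.0495 to 0.0225 for libraries of different number. The main fit left the libraries unpaired. With 3 libraries per condition these values cannot show whether a number marks a shared harvest, which the labels do not say. The replicate block gave 37 listed genes higher and 3 lower (LRP12 added) and 4437 genes higher and 3796 lower in all. Small differences of scarce genes such as FBXO43 and GEM were not detectable at this depth. Why settings differed was not tested.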
